A study of Arabidopsis thaliana with 16 samples.

Results

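The comparison set the shoot apex of dark-grown Arabidopsis thaliana seedlings against their cotyledons, before any move to light. It rested on 4 of the 16 ATH1 microarrays of the study, 2 of the dark apex and 2 of the dark cotyledon. These arrays were chosen by their labels alone, with no measured value. All seedlings were of the accession Landsberg erecta, with no mutant, transgene or added chemical. Stratified seeds on agar medium without sucrose had 30 min of white light at 100 µmol m-2 s-1 to start germination, followed by 3 days of darkness at 21 °C. Seedlings were harvested under green safelight and kept in RNAlater, and 1 tissue was cut from each under a stereomicroscope. For the apex, cuts were made under the meristem and where the cotyledons join it, and the cotyledon piece lacked its petiole and its tip. Each sample was a pool of many seedlings from several plates, so an array measured a mean over plants and over all cell types of the piece. The other 12 arrays held the same tissues after 1 h and 6 h of light, 2 arrays each, and the apex alone after 2, 24, 48 and 72 h, 1 array each. Nothing in the labels tied the 2 arrays of a group to separate sowings, so each p-value measures the spread between arrays, which may be technical.

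A seedling that germinates in darkness grows as an etiolated plant, with a long hypocotyl, a closed apical hook and small folded cotyledons. Its shoot meristem makes almost no leaves until light reaches the seedling. The cotyledons hold the remaining seed reserves and etioplasts, the dark form of the chloroplast, which carry a ready supply of protochlorophyllide and turn green within hours of light. Cell walls loosened by expansins, the hormone auxin and the microtubule array all take part in the growth of young shoot tissue. Breakdown of branched-chain amino acids and autophagy, the recycling of cell contents in the vacuole, are known to be switched on when plant cells run short of sugar.

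A signal is the brightness of a probe set, the group of probes for a transcript, in arbitrary units. It can be compared between arrays for the same probe set, but not between probe sets. The 35th percentile of an array's signals, 14.5 and 18.6 on the apex arrays and 16.7 and 14.5 on the cotyledon arrays, served as the level below which a signal was taken as dim. Differences are given as apex minus cotyledon on the log2 scale with their standard error (SE) from limma, and a probe set was called at a Benjamini-Hochberg adjusted p under 0.05.

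Few genes that define these tissues could be read, because most of them lay on probe sets without a single gene name in the annotation used. Of 16 shoot apex markers, LAS and CLV3 had a probe set. LAS, a regulator of axillary meristems, had signals of 33.2 and 63.4 in the apex and 48.6 and 30.2 in the cotyledon, and the groups overlapped. CLV3, the peptide made by meristem stem cells, had 11.96 and 5.45 in the apex and 2.099 and 1.85 in the cotyledon, all at or below the dim level. Of 15 markers of the cotyledon blade, RCA and ICL were measured. RCA had 2317 and 2265 in the apex and 5434 and 4153 in the cotyledon. ICL had 3667 and 3986 in the apex and 8523 and 8720 in the cotyledon. The root marker PYK10 was bright in both tissues, at 2759 and 3949 in the apex and 2477 and 3578 in the cotyledon. The 8 vascular and 5 mesophyll and epidermis markers had no measured member, and the guard-cell list had 3 of 7. The label of the apex was therefore not borne out by a bright meristem marker, while both cotyledon markers stood higher in the samples labelled cotyledon. The differences of RCA and ICL were -1.05 and -1.17 (limma adjusted p = 0.0298 and 0.0304). Both calls ended with no intensity trend in limma's variance model (adjusted p = 0.0556 and 0.0907), and further limits of both are given below.

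The array pairs were alike within a tissue, with Pearson's r of 0.897 for the apex and 0.905 for the cotyledon, against 0.832 to 0.876 across the tissues. These r values were taken over the log2 signals of all 22746 probe sets that were not controls, dim ones included. The ratio of 3′ to 5′ signal of the GAPDH control, a measure of RNA and label length, moved with tissue. It was 0.899 and 1.78 on the apex arrays and 4.72 and 2.60 on the cotyledon arrays. A second GAPDH control gave 0.993 and 0.967 against 1.57 and 1.47, while the actin control gave 7.13 and 12.6 against 7.15 and 6.71. The part of this difference in the results was not tested. In such bulk samples, fewer cells of a type and less RNA per cell cannot be told apart.

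In the dark, 3077 of the 18237 probe sets tested differed between the tissues (16.9%). Of these, 1553 were higher in the apex (8.52%) and 1524 in the cotyledon (8.36%), and on none of them did the arrays of the tissues overlap. A call from 2 arrays against 2 largely requires such a separation. The lack of overlap is therefore not further support, here or for the single genes below. With every dim signal raised to the dim level, so that folds are lower bounds, 2528 of the called probe sets differed by at least 2-fold, and 102 higher in the apex and 15 higher in the cotyledon by at least 8-fold. Among those higher in the apex, 223 were dim on both cotyledon arrays, and 144 of those higher in the cotyledon were dim on both apex arrays. The median over all tested probe sets was 0.07, with a median SE of 0.42. Centring every array on its median moved that median by -0.193 and left 1039 calls higher in the apex and 1798 in the cotyledon, so that the apex share of calls went from 50.5% to 36.6%. Quantile normalization moved it by -0.114 and gave an apex share of 45.2%. The total fell to 1805 calls without apex array 2 and to 1769 without cotyledon array 1. Calls higher in the apex numbered 853 without apex array 1, 825 without apex array 2 and 893 without cotyledon array 1, and calls higher in the cotyledon numbered 980 without apex array 2, 876 without cotyledon array 1 and 914 without cotyledon array 2.

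Of the 24 genes with the largest called differences, 12 in each direction, 19 were dim on both arrays of their dimmer tissue. On the apex side they included 2 expansins, an auxin-conjugating enzyme, a cellulase-family enzyme and a bZIP transcription factor. EXPA8, an expansin that loosens cell walls, had signals of 545 and 406 in the apex and 4.94 and 3.91 in the cotyledon. Both apex arrays were far above the dim level and both cotyledon arrays below it, and the apex was at least 30.2-fold higher (log2 difference 6.74 ± 0.66, adjusted p = 2.16e-05). The transcription factor BZIP61 gave 412 and 266 in the apex and 2.27 and 1.56 in the cotyledon, with no overlap, at least 21.2-fold higher in the apex (adjusted p = 7.44e-06). GH9B13, of the glycosyl hydrolase family that holds the plant cellulases, read 485 and 302 in the apex and 1.39 and 20.9 in the cotyledon (log2 difference 6.15 ± 0.85, adjusted p = 0.0002896). Its 2 cotyledon arrays differed widely, and both lay below the apex arrays.

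Another 2 large apex differences were in genes that carry only locus numbers in the annotation. AT1G62480 had 967 and 1369 in the apex and 2.23 and 17.5 in the cotyledon and a log2 difference of 7.52 ± 0.68 (adjusted p = 1.22e-05). AT1G12080 had 1459.6 and 2379.6 in the apex and 17.1 and 15.5 in the cotyledon and a difference of 6.84 ± 0.59 (adjusted p = 9.27e-06). For both, the cotyledon signals lay near or under the dim level. AT3G21670, named NPF6.4 and a member of the NRT1/PTR transporter family, read 299.6 and 149 in the apex and 6.66 and 2.04 in the cotyledon and was at least 13.6-fold higher in the apex (adjusted p = 1.34e-05). AT5G11420 was 63.1-fold higher in the apex, at 1308 and 1115 in the apex and 22.2 and 16.5 in the cotyledon (adjusted p = 3.96e-05). The remaining large apex differences, AT1G70270, AT1G14120 and AT3G62950, were in genes without a described name and were at least 4.04-fold, 4.51-fold and 1.87-fold. The smallest of them was also the least stable: AT3G62950 had an adjusted p of 0.00897, and of 0.0521 without apex array 1, 0.0673 without apex array 2 and 0.07204 without cotyledon array 2.

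On the cotyledon side, 11 of the 12 genes were dim on both apex arrays. LCR67, a plant defensin also named PDF1.1, had 1.49 and 2.11 in the apex and 59.6 and 134 in the cotyledon, and the cotyledon was at least 5.45-fold higher (adjusted p = 7.05e-05). AT5G66985 gave 0.5804 and 1.78 in the apex and 87.7 and 326 in the cotyledon, at least 10.3-fold higher in the cotyledon (adjusted p = 0.00273), and AT1G48660 gave 1.44 and 5.57 in the apex and 137 and 170.3 in the cotyledon, at least 9.29-fold (adjusted p = 2.70e-05). All 3 were dim on both apex arrays and clearly above the dim level on both cotyledon arrays. The exception was AT1G33265, with 76.7 and 45.8 in the apex and 749 and 1104 in the cotyledon. It was measured in both tissues and was 15.3-fold higher in the cotyledon (log2 difference -3.94 ± 0.34, adjusted p = 1.04e-05). Another 6 locus-number genes, AT3G15570, AT4G33560, AT2G43140, AT1G06000, AT1G51080 and AT5G63060, were dim on both apex arrays and at least 1.07-fold to 4.12-fold higher in the cotyledon. The adjusted p of AT3G15570 became 0.0516 without apex array 1 and 0.0569 without cotyledon array 1, that of AT1G51080 became 0.0724 without apex array 1, 0.0928 without cotyledon array 1 and 0.0596 without cotyledon array 2, and that of AT4G33560 lay between 0.0525 and 0.168 without any 1 of the dark arrays. With dim signals raised, AT1G51080 and AT5G63060 had differences of -0.10 and -0.09 (both adjusted p = 0.918) and AT2G43140 of -1.31 (adjusted p = 0.119), and with the 4 dark arrays alone the adjusted p was 0.0522 for AT1G51080 and 0.0671 for AT5G63060.

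**Figure D1:**
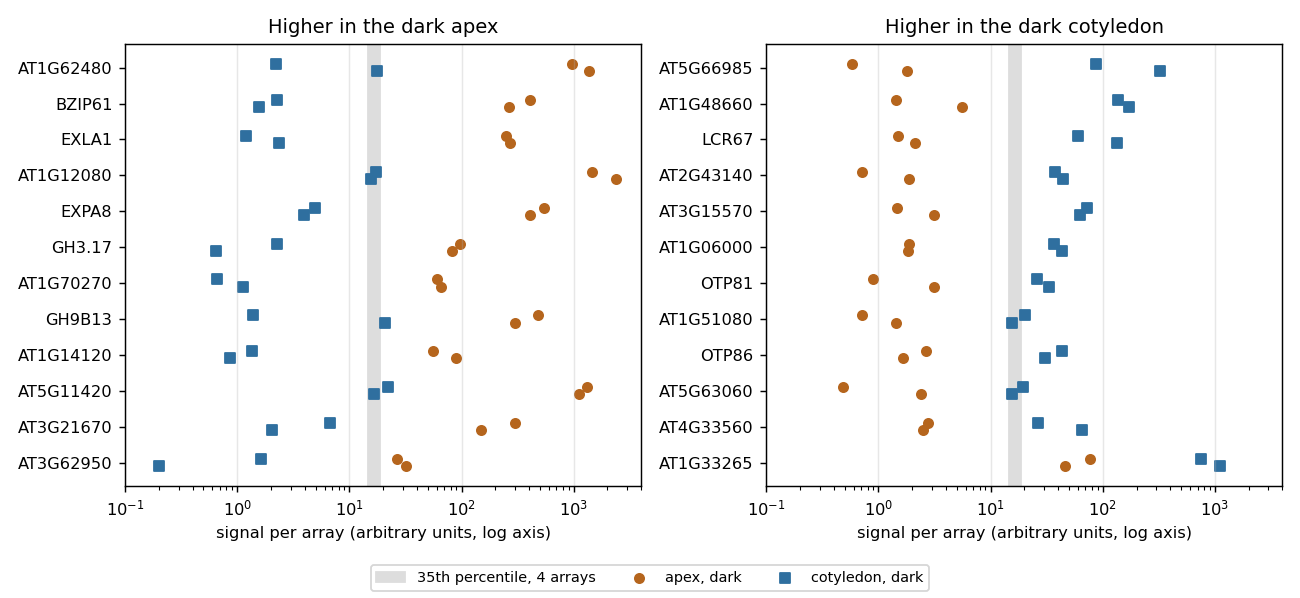
Signals on the 4 dark arrays for the 12 genes with the largest called difference in each direction, on a log axis in arbitrary units. Each point is 1 array, and the grey band spans the 35th percentiles of the 4 arrays. Most of these genes lie below or in the band in their dimmer tissue, and AT1G33265 is measured above the band in both tissues.

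Among genes of wall loosening, the calls lay in the apex and most members were not called. This list and those below were chosen with earlier results of these data known, so their counts and medians describe the chosen genes. Of the 79 expansin and xyloglucan endotransglucosylase (XTH) genes listed, 22 were measured. Of these 7 were higher in the apex and 0 in the cotyledon, with 10 and 2 at an unadjusted limma p under 0.05. Their median difference was 0.67, against 0.07 for all probe sets. The called members were the expansins EXPA8 and EXPA4, the expansin-like genes EXLA1, EXLA2 and EXLA3, and the xyloglucan-remodelling XTH19 and XTH33. EXLA1 had 247 and 269 in the apex and 1.19 and 2.35 in the cotyledon and was at least 16.5-fold higher in the apex (adjusted p = 4.26e-05). EXLA2 had 64.1 and 61.1 in the apex and 2.33 and 1.29 in the cotyledon, at least 4.01-fold (adjusted p = 0.000426). Neither overlapped between tissues, and both kept their call without any 1 of the dark arrays. EXPA4 was bright in both tissues, at 846 and 610.1 in the apex and 179 and 251 in the cotyledon, a 3.39-fold difference (adjusted p = 0.01596, and 0.119 without apex array 1 and 0.128 without cotyledon array 1). XTH19, XTH33 and EXLA3 were dim on both cotyledon arrays and at least 1.56-fold, 2.54-fold and 2.801-fold higher in the apex. Their calls were the less firm ones. For XTH19 the adjusted p became 0.0698 without apex array 2 and 0.0533 without cotyledon array 1, for XTH33 it became 0.06200 without apex array 1, 0.105 without apex array 2 and 0.1296 without cotyledon array 1, and for EXLA3 it became 0.106 without apex array 1, 0.214 without apex array 2 and 0.354 without cotyledon array 2. With 4 called members without apex array 1, apex array 2 or cotyledon array 1, the count depended on single arrays. The 15 other members ranged from -1.54 for EXPB2 to 3.12 for EXPA18 and were not called. EXPB2 was called, lower in the apex, without apex array 1 (adjusted p = 0.0157), and EXPA18, higher in the apex, with dim signals raised (adjusted p = 0.0127).

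Tubulins, which build the microtubules, were higher in the apex, with all 7 measured members of 15 brighter on both apex arrays than on either cotyledon array. Of them 6 were called higher in the apex and 0 in the cotyledon, where 0 passed an unadjusted limma p under 0.05, and the median difference was 1.29. TUB1 had 721 and 722 in the apex and 32.8 and 31.5 in the cotyledon, a 22.4-fold difference (log2 4.49 ± 0.30, adjusted p = 1.71e-06). Its paired arrays were nearly equal within each tissue. TUB6 had 991 and 1163 in the apex and 354 and 232 in the cotyledon (3.75-fold, adjusted p = 0.000467), and TUA6 had 2596 and 3024 in the apex and 875 and 1455 in the cotyledon (2.48-fold, adjusted p = 0.00393). TUB5, TUB7 and TUA1 differed by 2.44-fold, 2.35-fold and 2.402-fold. The call of TUA6 ended without cotyledon array 1, at an adjusted p of 0.0642, as did that of TUB5, at 0.0508. TUB9, with 806 and 735 in the apex and 539 and 434 in the cotyledon, was not called (difference 0.67 ± 0.23, adjusted p = 0.05798).

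Auxin genes were next. Of 75 listed, 16 were measured, 6 were called higher in the apex and 0 in the cotyledon, with 8 and 0 at an unadjusted limma p under 0.05, and the median difference was 1.42. With dim signals raised to the 35th percentile the median was 0.39, and with a pseudocount of 16 it was 0.53. GH3.17, IAA34 and WAG2 were among the members dim on both cotyledon arrays. GH3.17, which joins auxin to amino acids, had 96.2 and 81.4 in the apex and 2.24 and 0.646 in the cotyledon and was at least 5.68-fold higher in the apex (adjusted p = 1.32e-05). WES1, an enzyme of the same GH3 family, had 359 and 317 in the apex and 104 and 67.5 in the cotyledon (4.03-fold, adjusted p = 0.00141). The 2 tissues did not overlap for either. IAA29, of the Aux/IAA repressors of auxin response, had 333 and 268 in the apex and 18.1 and 8.98 in the cotyledon (23.5-fold, adjusted p = 6.04e-05). IAA34, of the same family, had 47.2 and 50.3 in the apex and 9.41 and 9.25 in the cotyledon, at least 3.12-fold (adjusted p = 0.00508). Both repressors were brighter on each apex array than on either cotyledon array. The kinase gene WAG2, whose product acts on auxin carriers, had 106 and 108 in the apex and 15.8 and 5.44 in the cotyledon and was at least 6.87-fold higher in the apex (adjusted p = 0.0145, and 0.0724 without apex array 1, 0.0815 without apex array 2 and 0.125 without cotyledon array 2). The homeobox gene HAT2 differed by 2.74-fold (adjusted p = 0.0121, and 0.106 without apex array 1 and 0.122 without cotyledon array 2). The auxin synthesis gene YUC4 had a difference of 2.07 ± 0.70 and was not called (adjusted p = 0.0582, and 0.0332 without apex array 2).

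Genes of sugar starvation and of leucine breakdown also had their calls in the apex. Of 44 listed, 10 were measured, 5 were called higher in the apex and 0 in the cotyledon, with the same numbers at an unadjusted limma p under 0.05, and the median difference was 1.17. MCCA and MCCB, the subunits of methylcrotonyl-CoA carboxylase in leucine breakdown, both moved. MCCA had 1583 and 1907 in the apex and 276 and 296 in the cotyledon (6.08-fold, log2 2.60 ± 0.30, adjusted p = 7.89e-05). MCCB had 1616 and 2094 in the apex and 525 and 523 in the cotyledon (3.51-fold, adjusted p = 0.00297). The arrays of each tissue lay close together and far from the other tissue. IVD, the dehydrogenase of the preceding step in leucine breakdown, had 789.7 and 997 in the apex and 247 and 298 in the cotyledon (3.27-fold, adjusted p = 0.002097). AKINBETA1, a subunit of the energy-sensing kinase SnRK1, had 1533 and 1628 in the apex and 441 and 339 in the cotyledon (4.08-fold, adjusted p = 0.00292). ETFQO, which passes electrons from such dehydrogenases to the respiratory chain, had 198 and 194 in the apex and 72.2 and 53.7 in the cotyledon (3.15-fold, adjusted p = 0.00719, and 0.0648 without cotyledon array 2). The members not called were AMY1, EXO, D2HGDH, FHL and SAG29, between -0.65 and 0.69. This list's median moved to 1.76 without apex array 1 and to 1.70 without cotyledon array 1.

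Of the 28 autophagy genes, 10 were measured and 3 were called, all higher in the apex, with 5 higher in the apex and 0 in the cotyledon at an unadjusted limma p under 0.05, and a median difference of 0.49. That median was 0.81 without cotyledon array 1, 0.19 without cotyledon array 2 and 0.29 under median centring. The called genes encode ATG8, the small protein that coats the autophagosome membrane. ATG8B had 208 and 343 in the apex and 79.7 and 45.2 in the cotyledon (4.45-fold, adjusted p = 0.00108), and ATG8C had 225 and 316 in the apex and 84.8 and 74.6 in the cotyledon (3.35-fold, adjusted p = 0.00117). ATG8E had 708 and 1309.8 in the apex and 352 and 334 in the cotyledon (2.81-fold, adjusted p = 0.00308). Apex array 2 was the brighter of the apex pair for all 3, and neither apex array overlapped the cotyledon. Other members of the same ATG8 family, ATG8D, ATG8F and ATG8G, had differences of -0.07, 0.16 and -0.29 and were not called.

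Cell division genes gave a mixed picture, with a called share of 21.4%, near the 16.9% of all tested probe sets. The list was an extended one, and all 28 of its genes were measured. Of these 28, 5 were higher in the apex and 1 in the cotyledon, with a median difference of 0.22. The median changed sign without cotyledon array 2, to -0.04, and was 0.41 without apex array 1, 0.09 without apex array 2 and 0.03 under median centring. SIM, an inhibitor of cyclin-dependent kinases, had 405 and 256 in the apex and 88.5 and 66.8 in the cotyledon (4.19-fold higher in the apex, adjusted p = 0.000629). HON4, a protein related to linker histones, had 604 and 516 in the apex and 190.2 and 196 in the cotyledon (2.89-fold, adjusted p = 0.00178). The tissues did not overlap for either gene. KICP-02, a kinesin, was dim in the cotyledon and at least 2.58-fold higher in the apex (adjusted p = 0.0136, and 0.1005 without apex array 2 and 0.0915 without cotyledon array 1). KEU, which acts in the fusion of vesicles at the cell plate, differed by 2.18-fold (adjusted p = 0.007702, and 0.0743 without apex array 2 and 0.0501 without cotyledon array 2). FBL17, an F-box protein that removes cell cycle inhibitors, differed by 1.92-fold (adjusted p = 0.0323), and its call ended without any 1 of the dark arrays, at adjusted p between 0.0556 and 0.207. BUB3.2, related to a spindle checkpoint protein, was the member higher in the cotyledon. It had 1.91 and 1.71 in the apex and 9.53 and 21.1 in the cotyledon (adjusted p = 0.00259), with only cotyledon array 2 above the dim level, and its difference was -0.20 with dim signals raised. The DNA replication genes measured, POLD3, PSF2, ICU2 and PRL, had differences between 0.03 and 0.61 and 0 of 4 called, also at an unadjusted limma p under 0.05. Of 5 measured core histones 0 were called, with 1 lower in the apex at an unadjusted limma p under 0.05. Another list, of mitosis and cytokinesis, had 10 of its 53 genes measured. Of these, 1 was called higher in the apex and 1 in the cotyledon (20%). In that list 7 genes were lower on average in the apex, and the median difference was -0.53.

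Regulators of lateral organs and boundaries had a called share of 13.3%, near the 16.9% of all tested probe sets. Of 30 measured, 4 were higher in the apex and 0 in the cotyledon, with 6 and 2 at an unadjusted limma p under 0.05, and the median difference was 0.31. It was 0.08 without apex array 2, 0.04 without cotyledon array 2 and 0.12 under median centring. TCP15, a growth regulator of the TCP transcription factor family, had 520.3 and 317 in the apex and 34.4 and 29.4 in the cotyledon (12.8-fold, adjusted p = 0.000682), with no overlap. ROXY1, a glutaredoxin known from petal development, had 27.4 and 29.5 in the apex and 1.29 and 9.21 in the cotyledon, at least 1.82-fold higher (adjusted p = 0.0249, and 0.0952 without apex array 1, 0.114 without apex array 2 and 0.259 without cotyledon array 1). AN, which shapes leaf cells, had 320.3 and 156 in the apex and 70.1 and 96.04 in the cotyledon (2.72-fold, adjusted p = 0.0179, and 0.188 without apex array 1 and 0.1400 without cotyledon array 1). Its adjusted p was also 0.0612 under median centring and 0.0697 with no intensity trend. WAG2, given above with auxin, was the other called member. The leaf polarity and primordium genes YAB3, YAB5, JAG, NUB and PHV had differences between -0.49 and 0.97, and 0 of the 6 measured genes of that list were called, with 1 higher in the apex at an unadjusted limma p under 0.05.

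Single genes of other families were also called higher in the apex. MSRB9, which repairs oxidised methionine, had 404 and 250.4 in the apex and 10.9 and 19.8 in the cotyledon (21.7-fold, adjusted p = 1.04e-05). The dehydrin COR47, a protein of cold and drought, had 886 and 1129 in the apex and 182 and 119 in the cotyledon (6.81-fold, adjusted p = 0.000468). The linker histone HIS1-3, known from drought, had 111 and 149.6 in the apex and 20.02 and 15.5 in the cotyledon (7.300-fold, adjusted p = 0.00722, and 0.0662 without apex array 2 and 0.0502 without cotyledon array 2). These 3 did not overlap between tissues. RALFL33, a small secreted signalling peptide, differed by 5.05-fold (adjusted p = 0.000471), and TET8, a membrane tetraspanin, by 3.13-fold (adjusted p = 0.000351). The lectin JAL22 differed by 3.23-fold (adjusted p = 0.00295), and GAMMA-VPE, a protease of the vacuole, by 2.82-fold (adjusted p = 0.000841). Their lists did not lean to the apex as a whole. The list of COR47 had 1 of 16 measured genes called each way (12.5%), and that of GAMMA-VPE 1 of 11 called (9.09%), against 16.9% of all tested probe sets. Of 3 measured lectins of the JAL22 list, 2 were lower on average in the apex. The 10 measured RALF-like and CLE peptides had 2 called higher in the apex and 1 in the cotyledon, with a median of -0.38.

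**Figure D2:**
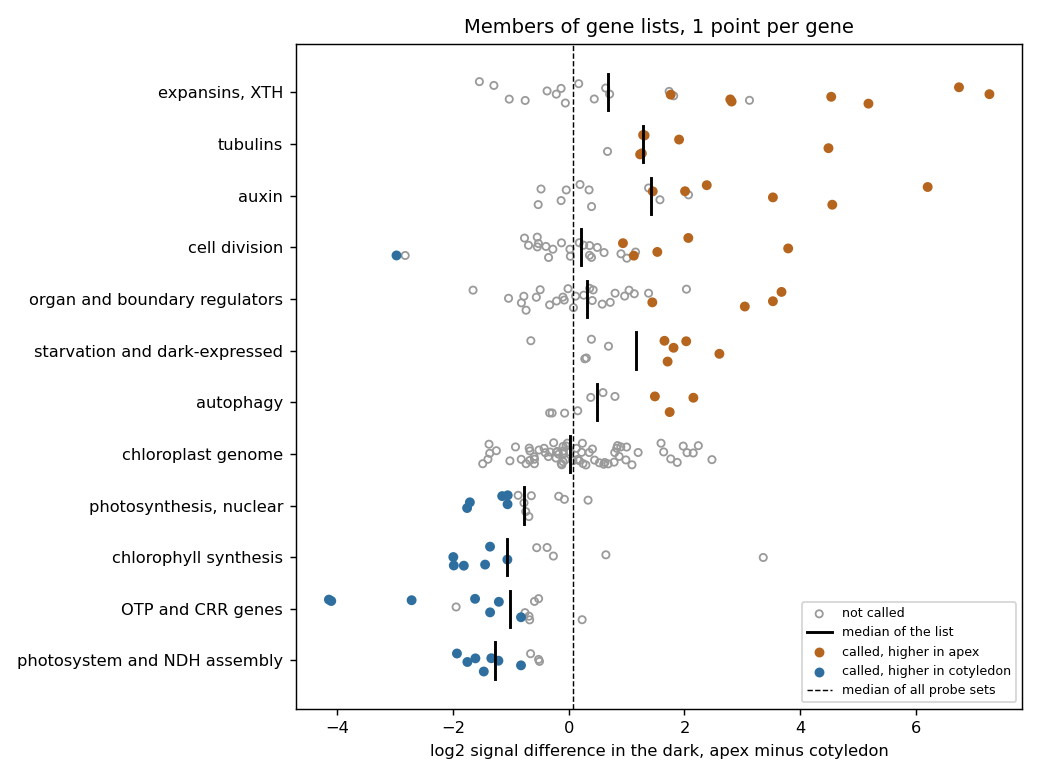
Log2 signal difference in the dark, apex minus cotyledon, for each measured gene of 12 lists, 1 point per gene. Filled points were called (brown higher in the apex, blue higher in the cotyledon), open points were not, the black bars are the medians of the lists and the dashed line is the median of all tested probe sets, 0.07. The tubulins all lie to the right, at a median of 1.29, and the photosystem and NDH assembly genes all lie to the left, at -1.27. All 12 lists were chosen with earlier results of these data known, and the photosystem and NDH assembly list and the OTP and CRR list were formed after values were seen.

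Several lists of plastid genes held more calls in the cotyledon than in the apex. Of 35 listed genes of chlorophyll synthesis, 11 were measured, 6 were called higher in the cotyledon and 0 in the apex, with 6 and 1 at an unadjusted limma p under 0.05, and the median difference was -1.06. They covered early and middle steps of the pathway. GSA1, which makes the precursor aminolevulinate, had 294 and 244 in the apex and 889 and 995 in the cotyledon (3.51-fold higher in the cotyledon, adjusted p = 0.000273). HEMB1, the dehydratase that follows, had 396 and 528 in the apex and 1724 and 1896 in the cotyledon (3.96-fold, adjusted p = 0.000115). CHLI2, a subunit of the magnesium chelatase, had 115 and 72.1 in the apex and 439 and 298 in the cotyledon (3.98-fold, adjusted p = 0.000256). In none of the 3 did an apex array reach the cotyledon arrays. Of the uroporphyrinogen decarboxylase genes, HEME2 had 399 and 385 in the apex and 1206 and 941 in the cotyledon (2.72-fold, adjusted p = 0.0004604) and HEME1 differed by 2.08-fold (adjusted p = 0.0164), a call that ended without any 1 of the dark arrays at adjusted p between 0.0761 and 0.0849. NOL, called at 2.56-fold (adjusted p = 0.00317, and 0.0504 without cotyledon array 1), is a chlorophyll b reductase and acts in breakdown, not synthesis. PORB, CHLM and hemb2 had differences between -0.55 and -0.26 and were not called. The gene farthest to the other side, hemf2, had 46.8 and 62.2 in the apex and 1.49 and 18.5 in the cotyledon and was not called (difference 3.36 ± 1.35, adjusted p = 0.109). It was called higher in the apex without cotyledon array 2 (adjusted p = 0.0449) and with dim signals raised (difference 1.62, adjusted p = 0.00085).

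Calls among nuclear photosynthesis genes lay in the cotyledon too. Of 74 listed, 13 were measured, 5 were called higher in the cotyledon and 0 in the apex, with 9 and 0 at an unadjusted limma p under 0.05, and the median difference was -0.77. SBPASE, an enzyme of the Calvin cycle, had 1476 and 1028 in the apex and 4309.8 and 3748 in the cotyledon (3.26-fold, adjusted p = 0.00138), and its call held without any 1 of the dark arrays. RCA, the activase of Rubisco, had 2317 and 2265 in the apex and 5434 and 4153 in the cotyledon (2.07-fold, adjusted p = 0.0298). PSBW, a small photosystem II subunit, and AT4G01150, the thylakoid curvature protein CURT1A, differed by 2.08-fold and 2.22-fold (adjusted p = 0.0273 and 0.0213). The calls of these 3 genes each ended without any 1 of the dark arrays, with adjusted p between 0.0551 and 0.2000 for RCA, 0.0515 and 0.191 for PSBW, and 0.0634 and 0.132 for AT4G01150. The antenna gene LHCB4.3 had 38.8 and 55.7 in the apex and 268 and 91.6 in the cotyledon (3.37-fold, adjusted p = 0.00866, and 0.08304 without apex array 1 and 0.112 without cotyledon array 1), and its close relatives LHCB4.1 and LHCB4.2, at -0.17 and 0.34, were not called. Without single dark arrays the count of called members was 1 without apex array 1 or cotyledon array 1, and 2 without apex array 2 or cotyledon array 2. It was 2 under quantile normalization, with a median difference of -0.34.

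Most measured genes on a list for building the photosynthetic complexes were higher in the cotyledon. The list was formed after values were seen, so its counts and median describe the chosen members only. It holds assembly factors of the photosystems and of the NDH complex, and also subunits of the NDH complex and a cytochrome b6f protein. Of 30 listed genes, 10 were measured and 7 were called, all higher in the cotyledon, where 7 also passed an unadjusted limma p under 0.05 and 0 in the apex. All 10 were lower on average in the apex, with a median of -1.27. HCF101, which supplies iron-sulphur clusters to photosystem I, had 302 and 285 in the apex and 1128 and 1109 in the cotyledon (3.81-fold, log2 -1.93 ± 0.23, adjusted p = 9.74e-05). PAM68, a photosystem II assembly factor, had 123 and 155 in the apex and 373 and 327 in the cotyledon (2.52-fold, adjusted p = 0.00258). LPA19, which acts on the precursor of the D1 protein, had 137 and 115 in the apex and 331 and 362 in the cotyledon (2.76-fold, adjusted p = 0.00213). The arrays of the tissues were apart for all 3. LPA2, another factor of photosystem accumulation, differed by 2.32-fold (adjusted p = 0.00187), and CCB3, a cofactor assembly protein of the cytochrome b6f complex, by 3.36-fold (adjusted p = 0.00527, and 0.05797 without apex array 1 and 0.0569 without cotyledon array 1). NdhN and NdhL are subunits of the NDH complex, which carries electrons around photosystem I. They differed by 3.05-fold (adjusted p = 0.00116) and 1.77-fold (adjusted p = 0.0153, and 0.0823 without apex array 1, 0.0612 without apex array 2 and 0.131 without cotyledon array 1).

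The OTP and CRR genes, many of which encode factors that edit or process organelle transcripts, had calls on the same side. This list too was formed after values were seen, so its counts and median describe the chosen members only. Of 23 listed, 14 were measured, 7 were called higher in the cotyledon and 0 in the apex, with 8 and 0 at an unadjusted limma p under 0.05, and the median difference was -1.01. NdhL, given above, stood on this list too through an older name. CRR42, which is needed for assembly of the NDH complex, had 45.9 and 34.8 in the apex and 256 and 268 in the cotyledon (6.55-fold, log2 -2.71 ± 0.25, adjusted p = 1.46e-05). CRR21, which edits a transcript of that complex, had 36.1 and 46.5 in the apex and 121 and 131 in the cotyledon (3.07-fold, adjusted p = 0.00218). The apex arrays of both were above the dim level and well below the cotyledon arrays. OTP81 and OTP86 were dim in the apex, at 0.885 and 3.11 in the apex and 26.04 and 32.9 in the cotyledon for OTP81 and 2.67 and 1.66 in the apex and 42.9 and 30.3 in the cotyledon for OTP86. They were at least 1.78-fold and 2.196-fold higher in the cotyledon, with adjusted p of 0.000396 and 0.00738 and, for OTP86, 0.0649 without cotyledon array 1. OTP84 and CRR41 differed by 2.31-fold and 2.56-fold. For OTP84 the adjusted p was 0.01596, or 0.104 without apex array 1 and 0.1396 without cotyledon array 1, and for CRR41 it was 0.00589, or 0.0673 without apex array 2 and 0.0633 without cotyledon array 2. Without cotyledon array 1 the list had 4 called members.

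Plastid protein folding and division also had calls in the cotyledon. The list of chaperonin 60 and Clp protease genes was likewise formed after values were seen. Of 5 measured genes of chaperonin 60 and the Clp protease, 3 were called higher in the cotyledon and 0 in the apex, where 0 passed an unadjusted limma p under 0.05. The chaperonin gene Cpn60beta2 had 68.9 and 95.4 in the apex and 562 and 734 in the cotyledon (7.92-fold, log2 -2.99 ± 0.34, adjusted p = 7.64e-05). Cpn60beta4, a second chaperonin subunit, had 64.4 and 79.9 in the apex and 207 and 225 in the cotyledon (3.01-fold, adjusted p = 0.00396). CLPP4, a subunit of the Clp protease, had 422 and 450.3 in the apex and 1835 and 1576 in the cotyledon (3.899-fold, adjusted p = 0.000102). No apex array reached the cotyledon level in these genes. FTSZ2-2, a protein of the plastid division ring, had 33.8 and 4.36 in the apex and 95.4 and 124 in the cotyledon (8.98-fold, adjusted p = 0.00425), with apex array 2 below the dim level, and FTSZ2-1 had a difference of -0.68 ± 0.34 and was not called.

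Genes of the chloroplast genome itself gave no calls. Of 85, 69 were measured, and 0 were called, with 3 higher in the apex and 2 in the cotyledon at an unadjusted limma p under 0.05. Their median was 0.02, with a range from -1.48 to 2.47. The median was the balance of unlike arrays: it was 0.73 without apex array 1, -0.63 without apex array 2, 0.39 without cotyledon array 1 and -0.30 without cotyledon array 2.

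Among other genes higher in the cotyledon, CLE41, a peptide known to guide vascular cells, had 95.3 and 67.7 in the apex and 309 and 319 in the cotyledon (3.91-fold, adjusted p = 0.000642). The defensin gene PDF1.4 had 23.8 and 20.9 in the apex and 199 and 334 in the cotyledon (11.5-fold, adjusted p = 0.000512), and the glycosyltransferase gene UGT87A2 had 65.5 and 52.01 in the apex and 297 and 341 in the cotyledon (5.45-fold, adjusted p = 4.65e-05). None of the 3 overlapped. Of 8 measured flavonoid genes, 2 were called higher in the cotyledon and 0 in the apex, where 0 passed an unadjusted limma p under 0.05. They were UGT78D1, which adds rhamnose to flavonols and was dim in the apex (at least 3.04-fold, adjusted p = 0.00439), and CHIL, a chalcone isomerase-like protein (at least 1.33-fold, adjusted p = 0.00257). ICL, the isocitrate lyase that turns seed oil carbon into sugar precursors, had 3667 and 3986 in the apex and 8523 and 8720.5 in the cotyledon (2.26-fold, adjusted p = 0.0304), a call that ended without any 1 of the dark arrays at adjusted p between 0.102 and 0.1300. STOMAGEN, a peptide that promotes stomata, differed by 2.36-fold (adjusted p = 0.0471), and it too was not called without any 1 of the dark arrays, with adjusted p between 0.0715 and 0.265. MUTE, a regulator of guard cell formation, was called at a log2 difference of -2.86 ± 0.77 (adjusted p = 0.0205), but its signals of 2.22 and 1.68 in the apex and 15.9 and 12.3 in the cotyledon were dim on all 4 dark arrays and the difference was 0.07 with dim signals raised. The other measured guard-cell markers, SPCH and FMA, were above the dim level on all 4 dark arrays. Their differences of -0.01 and 0.10 were not called (limma adjusted p = 0.996 and 0.932).

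Settings other than leaving out an array also ended calls of named genes. With no intensity trend in the variance model, 16 calls ended, those of AN, AT4G01150, EXLA3, EXPA4, FBL17, HAT2, HEME1, ICL, LHCB4.3, MSRB5, NdhL, PSBW, RCA, ROXY1, STOMAGEN and WAG2, at adjusted p from 0.0519 for WAG2 to 0.144 for STOMAGEN. With dim signals raised, 14 ended. Besides BUB3.2, MUTE, AT1G51080, AT5G63060 and AT2G43140 they were those of AT3G62950 (adjusted p = 0.117), CHIL (0.653), OTP81 (0.103), OTP86 (0.0559), ROXY1 (0.167), XTH19 (0.245), MSRB5 (0.0636), UGT74F1 (0.148) and TBL41 (0.999), so their lower bounds on the fold rest on a difference that was not called at that bound. The 4 dark arrays alone ended 9, also BUB3.2, CHIL, EXLA3, MSRB5, MUTE, ROXY1 and TBL41, at adjusted p up to 0.207. Quantile normalization ended 6 (AT4G01150, EXLA3, MSRB5, PSBW, RCA and STOMAGEN) and median centring 5 (AN, EXLA3, FBL17, MSRB5 and TET3), at adjusted p up to 0.147. No filter on dim probe sets ended EXLA3, RCA, STOMAGEN and UGT74F1, and a pseudocount of 16 ended BUB3.2, CHIL, MUTE and TBL41. Calls were gained by TUB9 under quantile normalization (adjusted p = 0.0241), YUC4 with no intensity trend (0.0442), EXPA18 with no intensity trend, the dark arrays alone and a pseudocount of 16 (0.0483, 0.0319 and 0.0092), and hemf2 with the dark arrays alone and a pseudocount of 16 (0.042 and 0.00791). Of these genes, MSRB5 belongs to the methionine sulfoxide reductases, TET3 to the tetraspanins, UGT74F1 to the glycosyltransferases and TBL41 to a family that acetylates wall polysaccharides.

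The same tissue contrast was fitted after 1 h and after 6 h of light. The signals came from 8 arrays that do not enter the dark differences, although 1 fit over all arrays set the spread and the filter for both. In all, 1588 probe sets were called after 1 h (8.71%), 896 higher in the apex (4.91%) and 692 in the cotyledon (3.79%). After 6 h, 604 were called (3.31%), 420 higher in the apex (2.3%) and 184 in the cotyledon (1.01%). Of the 1553 probe sets higher in the dark apex, 1280 (82.4%) were also higher in the apex at 1 h by sign, against 59.0% of all tested probe sets, and 485 of them were called in that direction and 22 in the other. At 6 h, 1161 (74.8%) had the same sign, against 51.6% of all, with 197 called in that direction and 6 in the other. Of the 1524 higher in the dark cotyledon, 1337 (87.7%) had the same sign at 1 h and 1246 (81.8%) at 6 h, with 453 and 101 called in that direction and 1 and 5 in the other. The median difference of the apex-higher set was 1.62 in the dark, 0.79 at 1 h and 0.45 at 6 h, and that of the cotyledon-higher set was -1.40, -0.69 and -0.45. The members had been chosen for a large difference in the dark, which by itself favours a smaller value on other arrays.

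The interaction term of the same model tested whether the tissue difference changed. It called 186 probe sets at 1 h (1.02%) and 490 at 6 h (2.69%), of which 159 and 417 had also been called in the dark. These terms use the dark arrays, so they are not independent of the dark differences. The counts were 15 and 14 with no intensity trend in the variance model. They were 79 and 156 without apex array 2, 97 and 206 without cotyledon array 1, and 111 and 230 without cotyledon array 2, and the 6 h count was 311 without apex array 1. Among the expansin and XTH genes named above, the change was called for EXPA8. Its log2 difference was 6.74 in the dark, 2.12 at 1 h and 0.27 at 6 h (interaction adjusted p = 0.0301 and 0.00417, or 0.0746 and 0.00581 with dim signals raised). At 6 h its signals were 306 and 35.1 in the apex and 76.3 and 97.6 in the cotyledon, and the tissues overlapped. EXLA2 and TUB1 kept theirs, at 5.85 and 5.19 for EXLA2 and 4.54 and 3.33 for TUB1, all called. The difference of GH3.17 grew, to 8.00 at 1 h and 9.66 at 6 h (interaction adjusted p = 0.0365 at 6 h), though the cotyledon signals that set its size were dim.

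The tissue difference of several starvation genes changed within 1 h. MCCA, 2.60 in the dark, was -1.89 at 1 h, now called lower in the apex (adjusted p = 0.00196), and 0.29 at 6 h. The change at 1 h was called (interaction adjusted p = 0.000269). Its signals in the 2 tissues were 155 and 109 in the apex and 673 and 345 in the cotyledon at 1 h and 39.9 and 34.2 in the apex and 31.7 and 28.95 in the cotyledon at 6 h, so the apex went from the brighter to the dimmer tissue before both became low. IVD likewise went from 1.71 to -1.49 (adjusted p = 0.0101, interaction adjusted p = 0.00336) and MCCB to -1.09 (adjusted p = 0.0743, interaction adjusted p = 0.0123). AKINBETA1, ETFQO and the autophagy gene ATG8B were at -0.60, -0.90 and -0.36 at 1 h, with interaction adjusted p of 0.0397, 0.0314 and 0.0301. For ETFQO and ATG8B the tissue difference at 1 h was itself not called, so their dark difference was lost but a reversal was not shown. Of the 10 measured starvation genes, the difference of 5 changed at 1 h, against 1.02% of all tested probe sets. At 1 h 3 were called higher in the cotyledon and 1 in the apex, against 3.79% and 4.91% of all. The list's median went from 1.17 to -0.995.

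The medians of the plastid lists stayed below 0 in light. The median of the chlorophyll list was -0.82 at 1 h and -0.71 at 6 h, and that of the assembly factors was -1.29 and -0.53. The assembly factor list had 7 of 10 members called lower in the apex at 1 h and 0 at 6 h. For the chlorophyll list these counts were 5 of 11 and 0. Over all tested probe sets, 3.79% were called lower in the apex at 1 h and 1.01% at 6 h. CRR42 moved from -2.71 to -1.33 at 1 h and -0.35 at 6 h (interaction adjusted p = 0.00505 at 6 h). HEMB1 went to -1.06 and -0.43 (interaction adjusted p = 0.0291 at 6 h), and HCF101 to -1.54 and -0.55 (interaction adjusted p = 0.0383 at 6 h). CLE41 reversed, from -1.97 in the dark to 1.75 at 6 h, where it was called higher in the apex (adjusted p = 0.00694, interaction adjusted p = 0.00119). Its signals at 6 h were 368 and 492 in the apex and 135 and 118 in the cotyledon, with no overlap.

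**Figure D3:**
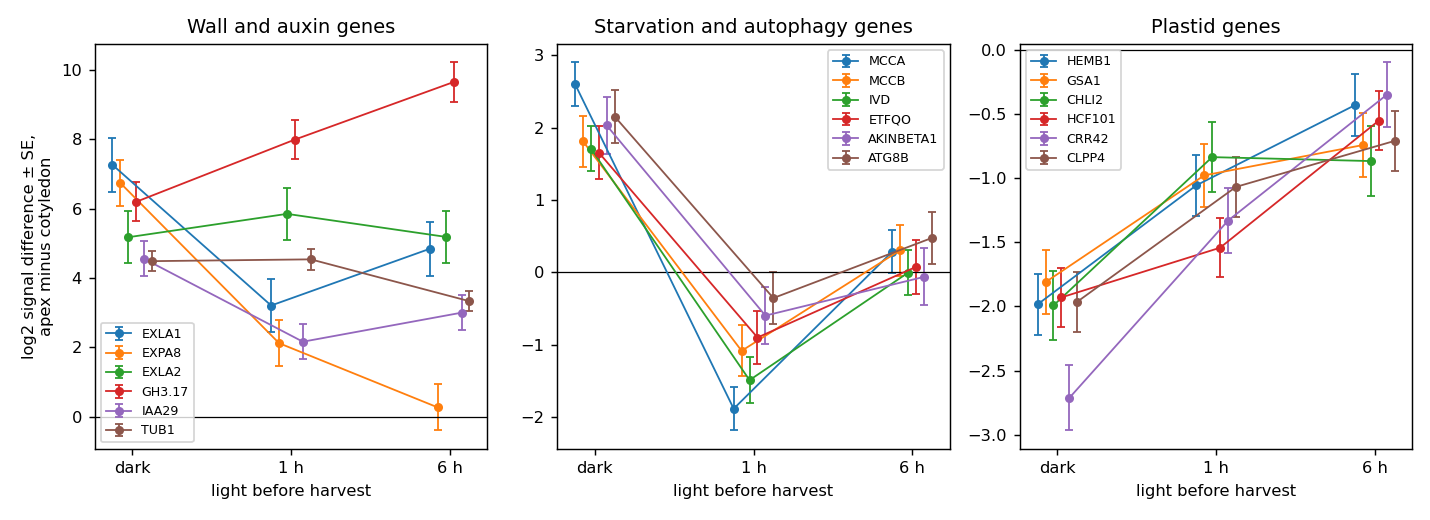
Log2 signal difference, apex minus cotyledon, with its SE from the limma fit, in the dark and after 1 h and 6 h of light, for 18 genes in 3 panels with separate vertical scales. The starvation genes lie above 0 in the dark and below 0 at 1 h, TUB1 and EXLA2 stay well above 0, and the plastid genes stay below 0 and come closer to it.

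**Figure D4:**
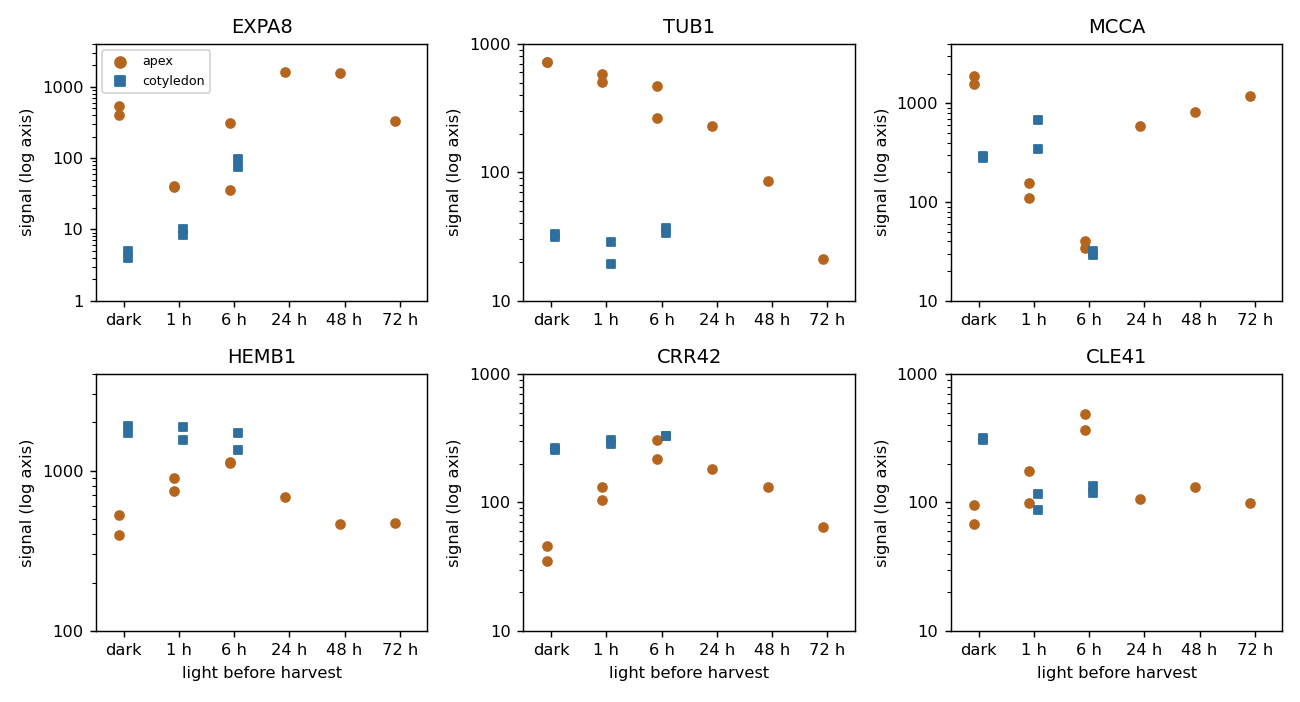
Signal per array on a log axis (arbitrary units, scales differ between panels) for 6 genes in the apex (circles) and the cotyledon (squares), against the hours of light before harvest. The cotyledon was sampled in the dark and at 1 h and 6 h only, and the apex at 24, 48 and 72 h has 1 array each. The 2 tissues are apart in the dark in every panel, and for MCCA and EXPA8 they come together by 6 h. The apex array at 2 h is not drawn.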

How the data were processed

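The deposited values are signal intensities of ATH1 arrays on a linear scale, made with GCOS and MAS5 per the submitters' processing notes; versions are not given in the sources used here. As deposited, each array's mean signal, leaving out 2% at each end, was close to 100. Signals were log2-transformed with no pseudocount and no further scaling.

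Of 22810 probe sets, 64 were controls, and of the other 22746 those above the 35th percentile of an array on 2 or more of the 16 arrays were tested (18237). Names came from the array's annotation table and RefSeq (TAIR10.1, names only): 13513 probe sets matched 1 gene, 503 several and 8730 none. Where more than 1 probe set stood for a gene, the brightest by mean log2 signal over the arrays was taken.

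Differences were fitted with limma 3.58.1 in R 4.3.3 over all 16 arrays in 10 groups, without a replicate block, with an intensity trend and two-sided tests adjusted by the Benjamini-Hochberg method over all probe sets tested. The spread came from 6 residual degrees of freedom and 7.618 prior degrees of freedom, which limma draws from all probe sets. The number of arrays limits the precision. The fit was tested on simulated data. A fold against a group whose arrays are all at or below their 35th percentile is given as a lower bound, computed from that percentile to the mean of the brighter tissue.

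Genes named were the 12 largest called differences in each direction that were above the percentile on both brighter arrays and apart on all arrays, up to 5 called members of each list, list members not called, and markers. The members and lists were chosen with earlier results of these data known, and the OTP and CRR, chaperonin and assembly factor lists were formed after values were seen. Lists are described by counts and medians, with no set test. Alternatives were quantile normalization, median centring, no variance trend, the dark arrays alone, other filters, raised dim signals, a pseudocount of 16, a replicate block and leaving out each dark array. Same-numbered arrays did not deviate together (r = -0.006 between the dark groups, -0.128 to 0.125 over all pairs of groups), so the numbers were not taken to pair samples. Promoter sequences were not analysed here.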

Additional observations from a re-analysis of the deposited data

Results flagged for a closer look

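The tissue difference changed with light for 32 of the 137 genes named, by the interaction term of the limma fit (adjusted p under 0.05), with 17 changes at 1 h and 25 at 6 h. In 40 of the 42 changes the difference moved towards or past 0, and in the other 2, GH3.17 at 6 h and NdhL at 1 h, it moved away. With dim signals raised to the 35th percentile, the size of the difference was smaller in light for 37 and larger for 5, the latter including AT1G14120 at 6 h and BUB3.2 at 1 h and 6 h. Most of these genes were named for a large difference in the dark, and the interaction uses the same dark arrays.

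Values are the change of the log2 difference, apex minus cotyledon, from darkness. Among genes higher in the dark apex, the changes after 1 h were -4.49 for MCCA, -4.01 for AT1G14120, -1.82 for TET8, -4.62 for EXPA8, -2.56 for ETFQO, -5.57 for AT3G21670, -3.20 for IVD, -2.51 for ATG8B, -2.70 for MSRB9, -2.90 for MCCB and -2.63 for AKINBETA1. After 6 h they were -2.32 for MCCA, -3.60 for AT1G14120, -1.56 for TUB5, -2.61 for UGT85A2, 3.46 for GH3.17, -3.66 for HIS1-3, -4.06 for TBL45, -6.48 for EXPA8, -2.06 for HON4, -6.39 for AT3G21670, -5.70 for BZIP61, -2.63 for MSRB9 and -3.86 for AT5G11420. Among genes higher in the dark cotyledon, the changes after 1 h were 4.17 for AT1G06000, 4.81 for AT1G48660, 4.00 for BUB3.2, -1.39 for NdhL, 2.35 for CLE41 and 2.91 for CYTC-2. After 6 h they were 3.37 for AT1G06000, 3.51 for AT1G33265, 7.39 for AT1G48660, 3.33 for BUB3.2, 1.55 for HEMB1, 4.41 for LCR67, 3.58 for OTP81, 1.38 for HCF101, 3.72 for CLE41, 6.52 for OTP86, 1.93 for CYTC-2 and 2.36 for CRR42.

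With dim signals raised to the 35th percentile, 29 of the 42 changes were still called. Those not called had raised changes at 1 h of 1.02 for AT1G06000, -0.16 for AT1G14120, 2.27 for AT1G48660, 1.22 for BUB3.2 and -3.25 for EXPA8. At 6 h they were 0.22 for AT1G06000, 0.25 for AT1G14120, 0.56 for BUB3.2, 1.44 for LCR67, 0.27 for OTP81, -1.47 for TBL45, 1.54 for OTP86 and 1.52 for CYTC-2, so much of the size printed above rests on dim signals. The cause of these changes was not tested.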

How the results depend on the processing

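Apart from leaving out an array, 26 recomputed counts of dark calls stayed within 1.5 times the main count, with totals from 2093 (no variance trend) to 3566 (pseudocount of 16). The exception was no variance trend, with 1034 calls higher in the apex. That setting also gave 628 calls for the tissues at 1 h and 192 at 6 h, and 15 and 14 for the change of the difference at 1 h and 6 h. The 1 h change had 285 calls under quantile normalization and 286 with a pseudocount of 16, and the 6 h change had 300 under median centring. Nuclear photosynthesis had 2 called members under quantile normalization and 1 with no variance trend. The cause of these moves was not tested.

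Leaving out 1 dark array, which removes samples, gave 1769 to 2058 calls in all, 825 to 1144 higher in the apex and 876 to 1200 higher in the cotyledon. The change at 1 h had 79 to 228 calls and that at 6 h 156 to 311. The expansin and XTH list had 4 to 6 called members, nuclear photosynthesis 1 to 2, and the OTP and CRR genes 4 to 6. The lone array left in a group was assumed to vary like the other groups.

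With the replicate number as a block there were 2966 calls, 1490 higher in the apex and 1476 in the cotyledon. The block gave 186 calls for the change at 1 h and 458 at 6 h. EXLA3 lost its call under it (adjusted p = 0.0592). The numbers were not found to pair the arrays.

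Apart from leaving out an array, 1157 of 1225 recomputed values of single genes kept their side of the threshold, 57 lost their call, 9 gained one, and 2 called genes changed sign and lost their call, MUTE (0.074) and TBL41 (0.0019), both with dim signals raised. Another 8 sign changes were of genes not called, with differences of at most 0.328 in size. The fit had 2 arrays per tissue, and dim signals have no order.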

Other observations

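Some further gene families had called members in the dark, with 16.9% of all tested probe sets called as the background. Of 20 measured TBL genes, whose family adds acetyl groups to wall polysaccharides, 3 were higher in the apex and 2 in the cotyledon, with a median difference of 0.89, or 0.29 with dim signals raised. TBL45 had signals of 43.6 and 40.7 in the apex and 3.198 and 2.098 in the cotyledon (at least 2.700-fold, log2 difference 4.02 ± 0.65, limma adjusted p = 0.000857), and TBL41 lay on the other side, with 3.91 and 3.16 in the apex and 13.3 and 16.1 in the cotyledon (difference -2.06 ± 0.60, adjusted p = 0.0298, and 0.0638 without apex array 1, 0.113 without apex array 2, 0.0878 without cotyledon array 1 and 0.129 without cotyledon array 2). Of 11 measured tetraspanins, membrane proteins of which TET8 is given above, 2 (18.2%) were higher in the apex and 0 in the cotyledon, with 4 and 0 at an unadjusted limma p under 0.05. TET3 had 352 and 391 in the apex and 154 and 209 in the cotyledon (difference 1.05 ± 0.25, adjusted p = 0.0105, and 0.0773 without apex array 2 and 0.112 without cotyledon array 1).

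Glycosyltransferases of the UGT family, which attach sugars to small molecules, had 4 of 35 measured members called higher in the cotyledon and 1 in the apex, a called share of 14.3%. UGT74F1, which acts on salicylic acid, had 4.88 and 4.89 in the apex and 25.7 and 31.9 in the cotyledon (at least 1.74-fold, difference -2.55 ± 0.77, adjusted p = 0.0351, and 0.107 without apex array 1, 0.114 without apex array 2, 0.111 without cotyledon array 1 and 0.153 without cotyledon array 2), and UGT85A2 had 94.04 and 109 in the apex and 21.1 and 26.4 in the cotyledon in the other direction (difference 2.099 ± 0.34, adjusted p = 0.000777). Of the 18 measured nuclear genes of respiration and the citrate cycle, 2 were higher in the cotyledon and ETFQO in the apex (16.7%). The shares of the tetraspanins, the UGT family and the respiration genes lie near the background. CYTC-2, a cytochrome c, had 10.05 and 15.3 in the apex and 42.4 and 55.8 in the cotyledon (at least 2.96-fold, difference -1.97 ± 0.31, adjusted p = 0.000709), while CYTC-1 had a difference of 0.03 ± 0.23 and was not called. Of 10 measured methionine sulfoxide reductases and glutaredoxins, 3 were higher in the apex and 0 in the cotyledon, with 3 and 3 at an unadjusted limma p under 0.05. The third of them, MSRB5, had 40.6 and 41.8 in the apex and 3.099 and 20.9 in the cotyledon (difference 2.36 ± 0.69, adjusted p = 0.0311, and 0.113 without apex array 1, 0.129 without apex array 2 and 0.318 without cotyledon array 1).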
